A study of Citrullus lanatus with 36 samples.

Results

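The 10 genes described here encode enzymes annotated as 1-aminocyclopropane-1-carboxylate (ACC) synthase or ACC oxidase, and their transcript levels were followed in the flesh of ripening and stored oriental melons with and without a functional *CmNOR* gene. They were found by the gene descriptions of the deposited expression table. Of 25121 named genes, 14 are described as ACC synthase or ACC oxidase without the word homolog, and the 10 with the highest mean level over all 36 libraries were kept. Of these, 3 are described as ACC synthases and 7 as ACC oxidases. Levels are given as FPKM, in which the fragments of a gene are divided by transcript length and by the mapped reads of the library. The genes were chosen by this mean FPKM, which is therefore given as a description only. The gene at rank 10, MELO3C004619.2, had a mean of 0.622 FPKM, and the gene at rank 11, which was not kept, had a mean of 0.263 FPKM.

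Plants make ethylene from methionine. SAM synthase turns methionine into S-adenosylmethionine (SAM), ACC synthase forms ACC from SAM, and ACC oxidase turns ACC into ethylene, carbon dioxide and cyanide. In climacteric fruits a burst of ethylene accompanies ripening, ACC synthase is widely regarded as the step that limits its rate, and separate members of both families are used in vegetative tissue, in unripe fruit and in ripening fruit.

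Flesh came from homozygous *Cmnor* fruits, from heterozygous *CmNOR/Cmnor* fruits and from wild-type (WT) fruits of the oriental melon cultivar BY9H. *Cmnor* carries a CRISPR-edited allele of *NON-RIPENING*, a NAC transcription factor gene, in the BY9H background, and *CmNOR/Cmnor* is its cross with BY9H, so that both mutant groups rest on a single edited allele. Stages are given in days after pollination (DAP) and were 33, 36, 39 DAP and 6 d of storage following harvest at 36 DAP, with 3 libraries in each of the 12 groups. The labels give the organism as watermelon (*Citrullus lanatus*), whereas the gene identifiers and the genome used for alignment are those of melon. The study's methods give 3 melons per genotype at each sampling of the storage trial, and its expression panels show 3 independent replicates. Neither these nor the labels tie each of the 3 libraries of a group to a separate fruit. The p-values below measure only the spread between these libraries, which may be technical if they shared fruits.

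The estimated depth was 17.75 M to 36.88 M fragments per library (M, 1e6), with a median of 30.48 M, so that 1 fragment in a transcript of 1 kb was worth 0.0271 to 0.0563 FPKM. The sources used here do not give the identifier of *CmNOR*, and its level was not used to check the labels. Summed FPKM of 22 phloem protein genes averaged 2676 to 10865 in the *Cmnor* groups, 95.9 to 2115 in the *CmNOR/Cmnor* groups and 61.5 to 437 in the WT groups. For 18 chlorophyll a-b binding genes the sums were 469 to 1063 in *Cmnor*, 13691 to 22912 in *CmNOR/Cmnor* and 13095 to 19092 in WT. *PSY1*, a phytoene synthase gene of coloured flesh, averaged 17.8 to 54.8 FPKM in *Cmnor*, 138 to 287 FPKM in *CmNOR/Cmnor* and 158 to 197 FPKM in WT. For 13 seed storage and oil body genes, of which 7 to 10 were under 1 FPKM in every library of a group, the sums were 79.3 to 107 in *Cmnor*, 43.5 to 88.1 in *CmNOR/Cmnor* and 47.2 to 96.1 in WT. For 65 heat shock genes the sum was highest in WT at 36 DAP (9243, range 5726 to 12179), followed by *Cmnor* at 36 DAP (5844), and was 2037 to 4436 in the other groups. Among 15407 genes whose mean was 1 FPKM or more, the median log2 fold change of *Cmnor* against WT was 0.516, 0.485, 0.31 and 0.453 at 33, 36 and 39 DAP and after storage. Scaling every library to the same median brought these medians to between -0.117 and -0.035. The part of tissue makeup and of this shift in the results below was not tested. In bulk flesh, fewer cells of a type and less RNA per cell cannot be told apart.

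**Figure D1:**
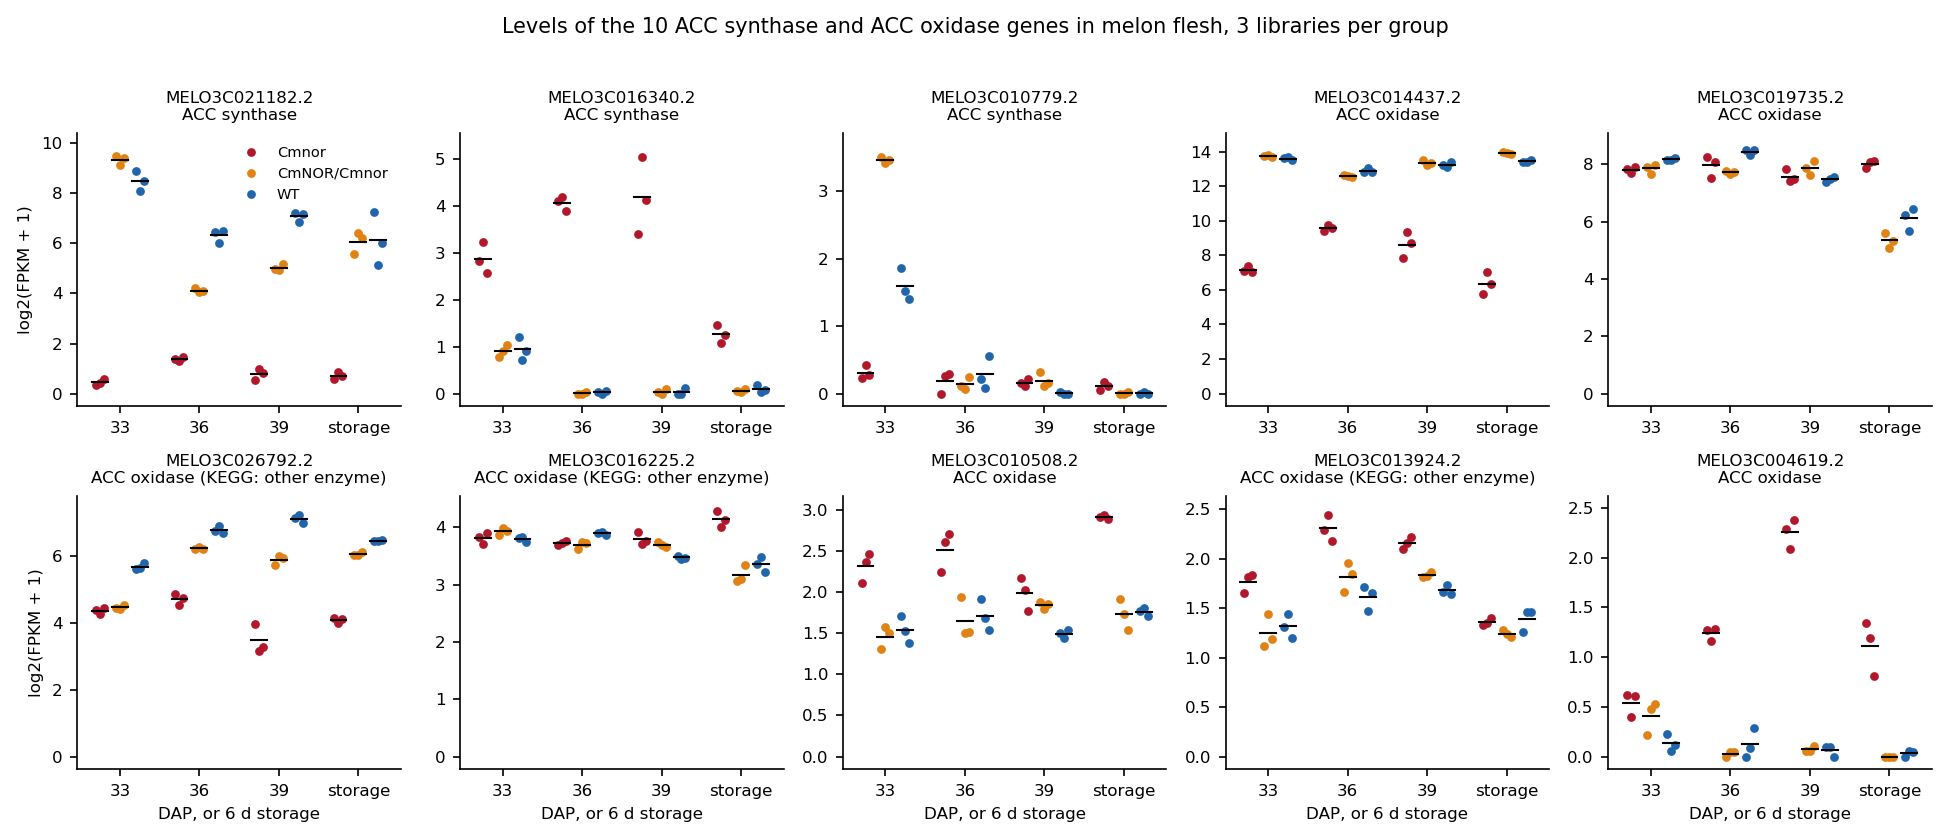
Level of each of the 10 genes as log2(FPKM + 1) on the vertical axis, by DAP or storage on the horizontal axis, with *Cmnor* in red, *CmNOR/Cmnor* in orange and WT in blue. Points are libraries and lines are means of 3. MELO3C014437.2 and MELO3C021182.2 lie lowest in *Cmnor* at each stage, while MELO3C016340.2 lies highest there. The mean of MELO3C004619.2 is also highest in *Cmnor*, which follows from the choice of genes. At 33 DAP its *Cmnor* and *CmNOR/Cmnor* libraries overlap.

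The most abundant ACC synthase, MELO3C021182.2, was nearly absent from *Cmnor* flesh. It lies on chromosome 11 of the Melon (DHL92) v3.6.1 genome, between 31526801 and 31530474 on the minus strand. At 33 DAP its level was 0.284, 0.351 and 0.487 FPKM in *Cmnor*, 708, 552 and 669 FPKM in *CmNOR/Cmnor*, against 478, 272 and 353 FPKM in WT. At 36 DAP it was 1.58, 1.49 and 1.79 FPKM in *Cmnor*, 17.4, 15.5 and 16.1 FPKM in *CmNOR/Cmnor*, against 87.7, 64.1 and 89.5 FPKM in WT. At both stages the 3 genotypes thus formed 3 separate levels, with the heterozygote highest at 33 DAP and between the others at 36 DAP. At 39 DAP the libraries held 0.460, 0.985 and 0.790 FPKM in *Cmnor*, 30.2, 29.7 and 34.6 FPKM in *CmNOR/Cmnor*, against 148, 116 and 143 FPKM in WT. After storage they held 0.482, 0.836 and 0.616 FPKM in *Cmnor*, 46.7, 83.5 and 73.5 FPKM in *CmNOR/Cmnor*, against 153, 33.8 and 63.8 FPKM in WT. No *Cmnor* library reached the lowest library of another genotype at any stage, and after storage the *CmNOR/Cmnor* range lay inside the WT range.

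Differences were tested with limma, a linear model fitted to log2(FPKM + 1) of all 24901 genes above 0 in at least 1 library, with Benjamini-Hochberg adjusted p-values. A gene was called changed when the adjusted p was under 0.05 and the log2 fold change was 1 or more, up or down. MELO3C021182.2 fell in *Cmnor* against WT at all 4 stages, with log2 fold changes of -8.03, -4.94, -6.30 and -5.42 (SE 0.30 each) and limma adjusted p of 6.4e-19, 2.8e-14, 1.4e-16 and 3.3e-15. As no *Cmnor* library held more than 1.79 FPKM, the 1 FPKM added before the log makes these folds too small. In *CmNOR/Cmnor* the direction of the difference from WT depended on the stage. At 33 DAP the heterozygote averaged 643 ± 81.2 FPKM and WT 368 ± 103 FPKM (SD, n = 3 each), a log2 fold change of 0.83 that passed the adjusted p narrowly and missed the fold threshold (limma adjusted p = 0.04997). Without WT replicate 1 at 33 DAP, the highest WT library, this log2 fold change was 1.04 and passed both thresholds (limma adjusted p = 0.027). At 36 DAP the gene fell in *CmNOR/Cmnor*, with 16.3 ± 1.01 FPKM against 80.4 ± 14.2 FPKM in WT, 4.93 ± 0.92-fold lower (limma adjusted p = 5.0e-06). At 39 DAP it was 4.31 ± 0.67-fold lower in *CmNOR/Cmnor* (limma adjusted p = 6.5e-06), and after storage the log2 fold change was -0.07 and did not pass (limma adjusted p = 1.0). The difference from WT changed by -2.90 (SE 0.43) in log2 terms between 33 and 39 DAP in *CmNOR/Cmnor* (limma adjusted p = 1.2e-05).

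The second ACC synthase, MELO3C016340.2, showed the opposite pattern: it was the main ACC synthase transcript of *Cmnor* flesh and close to the detection limit in the other genotypes from 36 DAP on. It lies on chromosome 7 between 23754259 and 23756943 on the plus strand, and KEGG places it in the same orthology group as MELO3C021182.2, the ACC synthases 1, 2 and 6. At 33 DAP its level was 6.03, 8.38 and 4.96 FPKM in *Cmnor*, 0.728, 0.877 and 1.04 FPKM in *CmNOR/Cmnor*, against 1.30, 0.643 and 0.869 FPKM in WT. At 36 DAP it was 16.1, 17.1 and 13.7 FPKM in *Cmnor*, 0, 0 and 0.0274 FPKM in *CmNOR/Cmnor*, against 0.0193, 0 and 0.0371 FPKM in WT. The values of this gene follow whole fragments, and those at 36 DAP correspond to 1012, 1125 and 1049 fragments in *Cmnor*, 0, 0 and 2 in *CmNOR/Cmnor* and 1, 0 and 2 in WT. At each stage, every *Cmnor* library stood above every library of the other genotypes. At 39 DAP *Cmnor* held 9.57, 31.9 and 16.4 FPKM, the other genotypes at most 0.0821 FPKM. After storage *Cmnor* held 1.75, 1.12 and 1.38 FPKM, and the other genotypes at most 0.134 FPKM. The gene rose in *Cmnor* against WT at all 4 stages, with log2 fold changes of 1.93, 4.03, 4.15 and 1.17 (SE 0.22 each) and limma adjusted p of 1.3e-08, 3.2e-15, 1.7e-15 and 4.0e-05. These understate the change, since 1 FPKM is added before the log. After storage the call was lost when all libraries were scaled to the same median (log2 fold change 0.86 against WT and 0.89 against *CmNOR/Cmnor*). Between *CmNOR/Cmnor* and WT the log2 fold change of this gene was between -0.04 and 0.00 and passed at no stage, with adjusted p of 1.0 in each case.

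The third ACC synthase, MELO3C010779.2, is described as CMA101-like and lies on chromosome 3 between 30906213 and 30908525 on the minus strand. It was a gene of 33 DAP, and its highest levels were in the heterozygote. At 33 DAP it held 0.175, 0.338 and 0.217 FPKM in *Cmnor*, 10.4, 9.67 and 10.001 FPKM in *CmNOR/Cmnor*, against 2.64, 1.87 and 1.65 FPKM in WT. The fragments behind these values were 9, 19 and 13 in *Cmnor*, 495, 526 and 484 in *CmNOR/Cmnor* and 152, 91 and 78 in WT. The ranges of the 3 genotypes did not overlap. The gene rose 4.88 ± 1.3-fold in *CmNOR/Cmnor* against WT (log2 fold change 1.87, SE 0.10, limma adjusted p = 1.0e-13) and fell in *Cmnor* against WT (log2 fold change -1.28, limma adjusted p = 4.0e-12). At every later stage no library of any genotype exceeded 0.473 FPKM, and the gene was not called between genotypes there. With a pseudocount of 0.1 it was called at 39 DAP in *Cmnor* (1.03, limma adjusted p = 0.02) and in *CmNOR/Cmnor* (1.17, 0.025) against WT. The change of the heterozygote's difference from WT between 33 and 39 DAP was -1.68 on the log2 scale (SE 0.14, limma adjusted p = 1.4e-09). With a pseudocount of 0.1 in place of 1 it was -1.09 and did not pass (limma adjusted p = 0.185).

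The ACC synthase transcripts of *Cmnor* flesh came mainly from another gene than those of *CmNOR/Cmnor* and WT flesh. Over the 4 ACC synthase genes of the table, MELO3C021182.2 made up 98.1% to 100% of the summed FPKM in the *CmNOR/Cmnor* and WT groups. In *Cmnor*, MELO3C016340.2 made up 90.9%, 89.5% and 95.0% at 33, 36 and 39 DAP and 65.8% after storage. The summed level was 7.08, 17.5, 20.2 and 2.15 FPKM in *Cmnor* at 33, 36 and 39 DAP and after storage, 655, 16.4, 31.7 and 68.0 FPKM in *CmNOR/Cmnor*, against 371, 80.7, 136 and 83.6 FPKM in WT. At 36 DAP the sums of *Cmnor* libraries, 15.8 to 18.9 FPKM, and of *CmNOR/Cmnor* libraries, 15.5 to 17.5 FPKM, overlapped, with MELO3C016340.2 leading in *Cmnor* and MELO3C021182.2 in *CmNOR/Cmnor*.

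**Figure D2:**
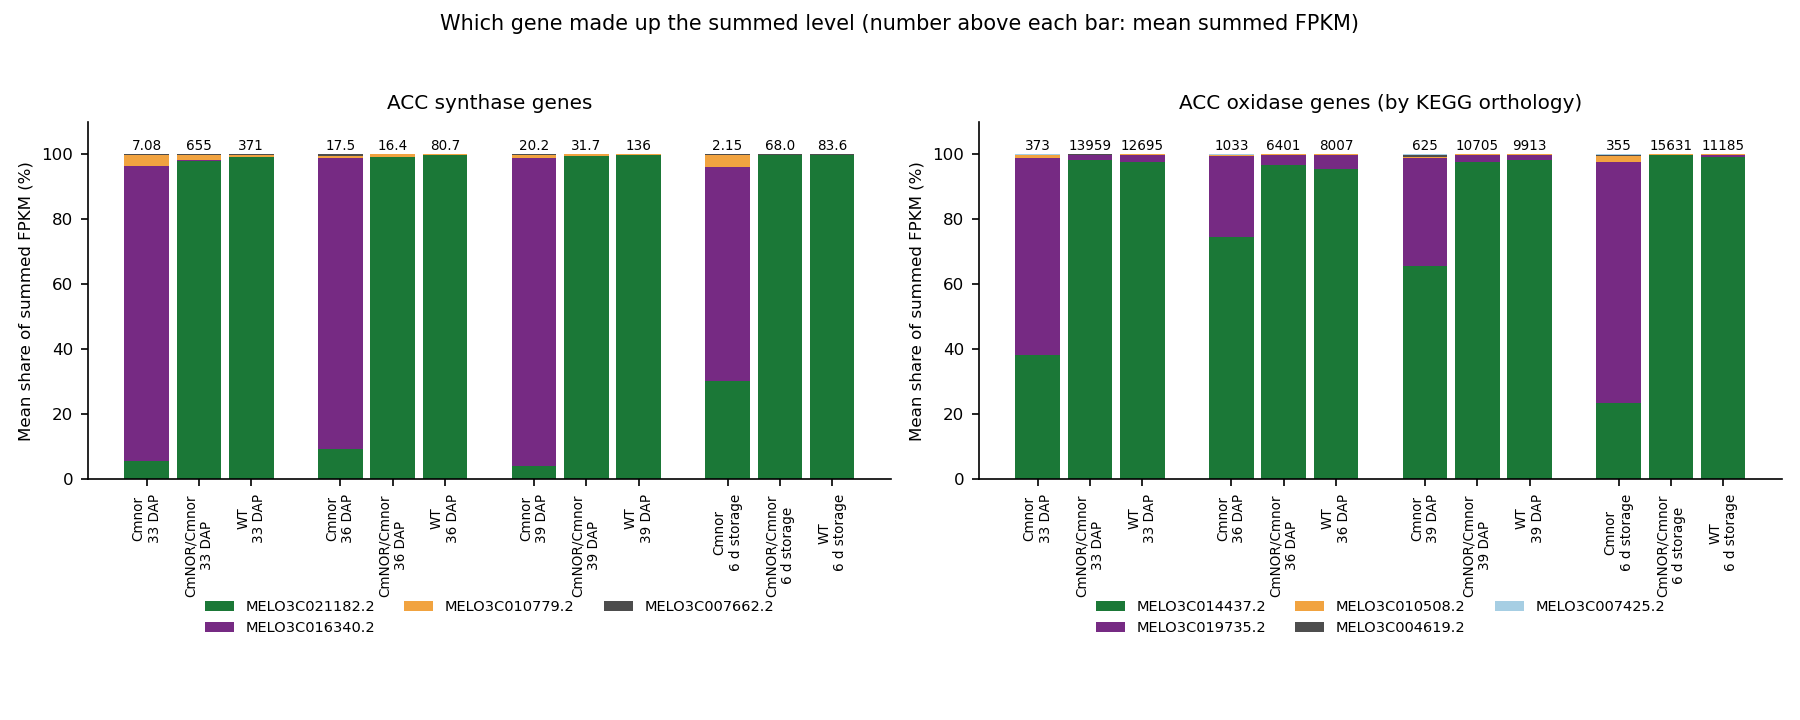
Share of the summed FPKM of the ACC synthase genes and of the KEGG-annotated ACC oxidase genes held by each gene, on a vertical axis from 0 to 100%, by genotype and stage, with the mean summed FPKM of each group printed above its bar. The bars are means of 3 libraries; MELO3C021182.2 fills 98.1% to 100% of the ACC synthase bars in *CmNOR/Cmnor* and WT, and MELO3C016340.2 fills 65.8% to 95.0% in *Cmnor*.

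Among the ACC oxidases, MELO3C014437.2 was by far the most abundant transcript, and it was much lower in *Cmnor* flesh at every stage. It is described as ACC oxidase 1 and lies on chromosome 5 between 2408689 and 2410670 on the minus strand. At 33 DAP its level was 137, 164 and 128 FPKM in *Cmnor*, 13802, 14338 and 13036 FPKM in *CmNOR/Cmnor*, against 12598, 13002 and 11616 FPKM in WT. At 36 DAP it was 689, 875 and 753 FPKM in *Cmnor*, 6396, 6160 and 6011 FPKM in *CmNOR/Cmnor*, against 7215, 8553 and 7209 FPKM in WT. *Cmnor* thus lay far below both other genotypes at these stages. At 39 DAP it held 228, 638 and 415 FPKM in *Cmnor*, 11537, 9595 and 10262 FPKM in *CmNOR/Cmnor*, against 9442, 8930 and 10828 FPKM in WT. After storage it held 53.2, 128 and 78.9 FPKM in *Cmnor*, 16091, 15570 and 15103 FPKM in *CmNOR/Cmnor*, against 10867, 10745 and 11726 FPKM in WT. Every *Cmnor* library lay below every other library at its stage, and replicate 2 of *Cmnor* at 39 DAP was the highest of its group for this gene and for both larger ACC synthase genes.

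The gene fell in *Cmnor* against WT at all 4 stages, 86.8 ± 12.4-fold at 33 DAP, 9.92 ± 1.6-fold at 36 DAP, 22.8 ± 11-fold at 39 DAP and 128 ± 56-fold after storage. The log2 fold changes were -6.44, -3.31, -4.62 and -7.08 (SE 0.25 each), with limma adjusted p of 1.4e-18, 3.0e-12, 2.2e-15 and 1.5e-19. Between *CmNOR/Cmnor* and WT the log2 fold changes were 0.15, -0.30, 0.11 and 0.49 and none passed (limma adjusted p of 0.85, 0.55, 0.96 and 0.26). The levels after storage, 15588 ± 494 FPKM in *CmNOR/Cmnor* and 11112 ± 534 FPKM in WT, did not overlap. In the order of the 12 group means, *CmNOR/Cmnor* after storage stood first, followed by *CmNOR/Cmnor* and WT at 33 DAP, and the 4 *Cmnor* groups stood last. The neighbours WT at 33 DAP and WT after storage overlapped, as did WT after storage and *CmNOR/Cmnor* at 39 DAP, and the 39 DAP groups of *CmNOR/Cmnor* and WT.

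The next ACC oxidase, MELO3C019735.2, stood higher in *Cmnor* than in either other genotype after storage. It lies on chromosome 11 between 23244951 and 23246562 on the plus strand. At 36 DAP it held 306, 185 and 271 FPKM in *Cmnor*, 216, 203 and 211 FPKM in *CmNOR/Cmnor*, against 358, 317 and 363 FPKM in WT. After storage it held 232, 273 and 278 FPKM in *Cmnor*, 48.2, 33.1 and 39.5 FPKM in *CmNOR/Cmnor*, against 74.6, 50.3 and 85.7 FPKM in WT. The stored *Cmnor* libraries all stood above the stored libraries of both other genotypes, and lay within the *Cmnor* range of 36 DAP. The gene was 3.72 ± 1.0-fold higher in stored *Cmnor* than in stored WT flesh (log2 fold change 1.91, SE 0.17, limma adjusted p = 9.3e-11) and was not called between *Cmnor* and WT at 33, 36 or 39 DAP, where the log2 fold changes were -0.35, -0.47 and 0.09. At 36 DAP the call depended on the scaling: with all libraries set to the same median, the log2 fold change was -1.12 (limma adjusted p = 3.8e-06). In *CmNOR/Cmnor* against WT it passed the adjusted p but not the fold threshold at 36 DAP (log2 fold change -0.71, limma adjusted p = 0.0038) and after storage (-0.77, 0.0031).

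Over the 5 genes that KEGG gives as ACC oxidase, MELO3C014437.2 made up 95.6% to 99.7% of the summed FPKM in the *CmNOR/Cmnor* and WT groups. In *Cmnor* it made up 38.3%, 74.7% and 65.7% at 33, 36 and 39 DAP and 23.7% after storage, and MELO3C019735.2 made up 60.4%, 24.8%, 33.1% and 74.1%. The summed ACC oxidase level was 373, 1033, 625 and 355 FPKM in *Cmnor* at the 4 stages, 13959, 6401, 10705 and 15631 FPKM in *CmNOR/Cmnor*, against 12695, 8007, 9913 and 11185 FPKM in WT.

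Of the other 3 genes that KEGG gives as ACC oxidase, MELO3C007425.2 ranked below the 10 genes, with a mean of 0.0915 FPKM, and 2 are among them. MELO3C010508.2, described as ACC oxidase 5 (chromosome 7, 8408753 to 8410896, minus strand), held 6.53, 6.66 and 6.41 FPKM in stored *Cmnor* flesh, 2.76, 2.32 and 1.91 FPKM in *CmNOR/Cmnor*, against 2.41, 2.50 and 2.27 FPKM in WT. It rose 2.73 ± 0.15-fold in stored *Cmnor* against WT (log2 fold change 1.15, SE 0.14, limma adjusted p = 2.5e-08), a call that was lost under median scaling (log2 fold change 0.60) and upper-quartile scaling (0.86). At 33, 36 and 39 DAP its log2 fold changes against WT were 0.77, 0.80 and 0.50, past the adjusted p but under the fold threshold. With a pseudocount of 0.1 those at 33 and 36 DAP were 1.02 each and were called, whereas under median scaling the 3 were 0.28, 0.29 and 0.21 and did not pass (limma adjusted p of 0.072, 0.066 and 0.19). MELO3C004619.2, also described as ACC oxidase 1 (chromosome 5, 28986437 to 28987714, plus strand), was listed at 3.89, 3.25 and 4.20 FPKM in *Cmnor* at 39 DAP and at no more than 0.447 FPKM in any *CmNOR/Cmnor* or WT library of any stage. This gene is among the 10 only through its *Cmnor* libraries, since its mean over the other libraries was 0.0844 FPKM, so its higher level in *Cmnor* follows from the choice of genes. Its log2 fold change against WT in *Cmnor* was 0.41, 1.11, 2.19 and 1.08 at the 4 stages. The calls at 36 DAP and after storage were lost under median scaling (0.79 and 0.80) and upper-quartile scaling (0.97 each), and the call after storage also without *Cmnor* replicate 1 (0.96). With a pseudocount of 0.1 the 4 values were 1.52, 3.07, 4.77 and 3.33, and that at 33 DAP was then called.

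The remaining 3 genes are described as ACC oxidases, but KEGG places them with other enzymes of the same large family of oxygenases. MELO3C026792.2 (chromosome 10, 10526412 to 10527350, plus strand) is given as a gibberellin 2-beta-dioxygenase, an enzyme that inactivates gibberellin. MELO3C016225.2 (chromosome 7, 22497766 to 22503510, minus strand) and MELO3C013924.2 (chromosome 6, 34789680 to 34796594, plus strand) are given as salicylic acid 3-hydroxylases. Their Swiss-Prot entries differ from this and are jasmonate-induced oxygenases 4 and 1 of *Arabidopsis*. Of the 3, MELO3C026792.2 was lower in *Cmnor* than in WT at all 4 stages. At 33 DAP it held 20.1, 18.3 and 20.8 FPKM in *Cmnor*, 21.1, 20.5 and 22.5 FPKM in *CmNOR/Cmnor*, against 48.4, 49.8 and 54.7 FPKM in WT. At 39 DAP it held 14.9, 8.05 and 8.84 FPKM in *Cmnor*, 52.2, 63.8 and 60.9 FPKM in *CmNOR/Cmnor*, against 140.1, 151 and 128 FPKM in WT. The heterozygote thus overlapped *Cmnor* at 33 DAP and stood between the other genotypes at 39 DAP. In *Cmnor* against WT the log2 fold changes were -1.33, -2.07, -3.65 and -2.38 (SE 0.13 each), with limma adjusted p of 2.8e-10, 2.4e-14, 9.8e-20 and 9.9e-16. In *CmNOR/Cmnor* against WT the gene fell at 33 DAP (log2 fold change -1.21, limma adjusted p = 3.6e-08) and at 39 DAP (-1.23, 2.1e-08). At 36 DAP (-0.54) and after storage (-0.39) it did not reach the fold threshold. MELO3C016225.2 stayed between 7.39 and 18.4 FPKM and MELO3C013924.2 between 1.17 and 4.44 FPKM in all libraries, and neither was called between genotypes at any stage. After storage MELO3C016225.2 held 18.4, 15.2 and 16.6 FPKM in *Cmnor*, 7.39, 7.59 and 9.10 FPKM in *CmNOR/Cmnor*, against 9.32, 10.2 and 8.32 FPKM in WT, so that *Cmnor* stood above both others. Its log2 fold change in stored *Cmnor* flesh was 0.79 against WT and 0.97 against *CmNOR/Cmnor* (SE 0.07), under the fold threshold. Against *CmNOR/Cmnor* it passed without *Cmnor* replicate 2 (1.04) or *CmNOR/Cmnor* replicate 3 (1.06).

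**Figure D3:**
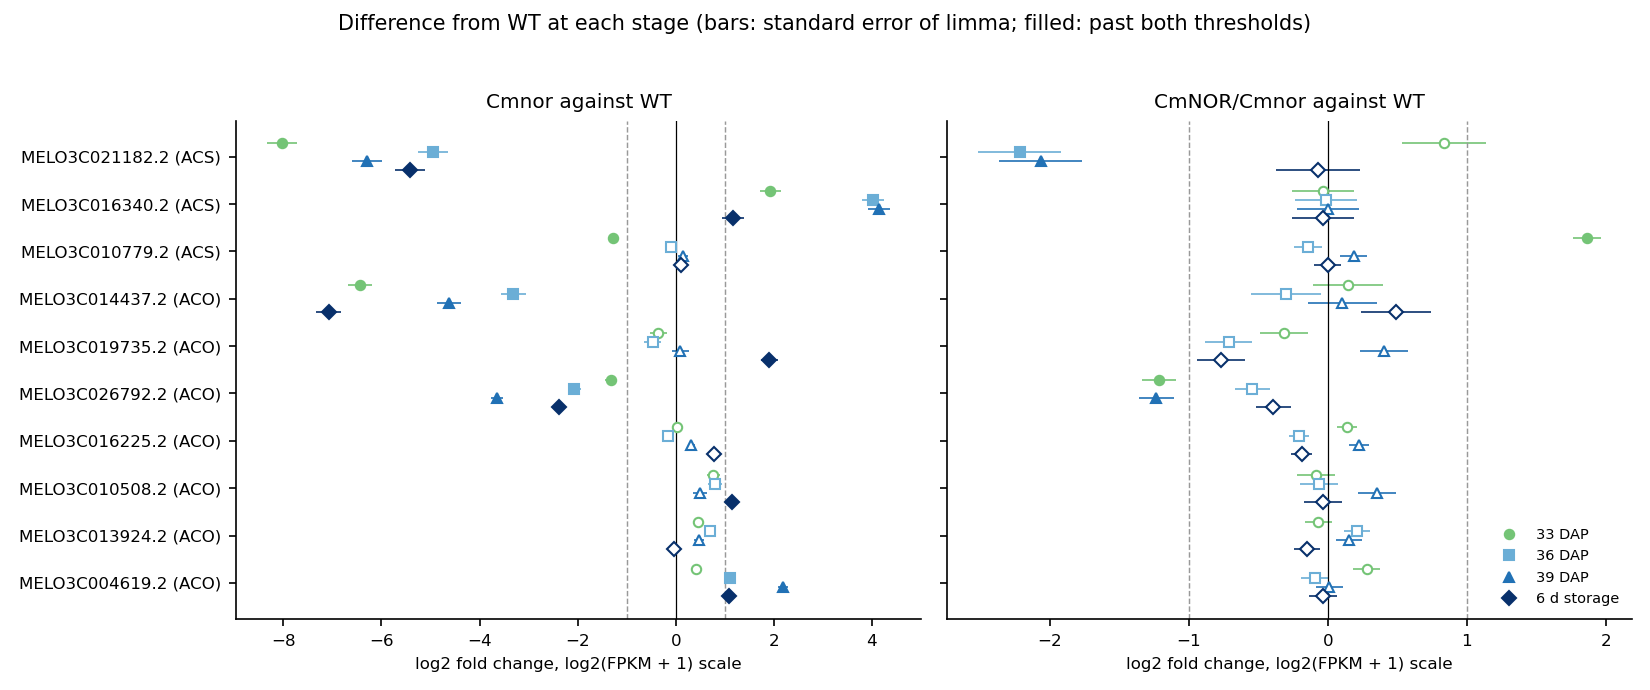
log2 fold change of each of the 10 genes against WT on the log2(FPKM + 1) scale, with *Cmnor* and *CmNOR/Cmnor* in separate panels, the 4 stages by colour and marker, and bars for the standard error of limma. Filled markers passed both thresholds; MELO3C021182.2 reaches -8.03 in *Cmnor* at 33 DAP and 0.83 in *CmNOR/Cmnor* at 33 DAP.

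Counted over the 10 genes, *Cmnor* differed from WT in 5 genes at 33 DAP (1 higher, 4 lower), where 29.1% of all genes tested were called. It differed in 5 at 36 DAP (2 higher, 3 lower; 29.7% of all genes), in 5 at 39 DAP (2 higher, 3 lower; 28.4%) and in 7 after storage (4 higher, 3 lower; 28.2%). At 36 and 39 DAP and after storage, 1 of the genes counted as higher was MELO3C004619.2, whose call there follows from the choice of genes. Over all genes, 22.8%, 22.9%, 19.8% and 21.4% were called higher and 6.37%, 6.79%, 8.65% and 6.81% lower at these stages. The median log2 fold change of the 10 genes was -0.17, -0.13, 0.24 and 0.44, beside 0.21, 0.17, 0.06 and 0.14 over all genes tested. Between *CmNOR/Cmnor* and WT, 2 of the 10 genes were called at 33 DAP (2.86% of all genes), 1 at 36 DAP (2.28%), 2 at 39 DAP (3.41%) and 0 after storage (1.36%). After storage 2 of the 10, MELO3C019735.2 and MELO3C026792.2, passed the limma adjusted p alone, as did 11% of all genes, and 3 had an unadjusted p under 0.05. Here and below, the share of all genes with an unadjusted p under 0.05 was not counted. Between *Cmnor* and *CmNOR/Cmnor*, 4, 5, 5 and 7 of the 10 were called, beside 28.6%, 28.8%, 28.5% and 29.8% of all genes. MELO3C004619.2, a gene kept only through its *Cmnor* libraries, was among those called at 36 and 39 DAP and after storage. These comparisons share groups and are not independent of each other. Without the fold threshold, 8, 8 and 8 of the 10 passed between *Cmnor* and WT at 33, 36 and 39 DAP (63.5%, 62.8% and 62.5% of all genes), and 4 and 3 passed between *CmNOR/Cmnor* and WT at 33 and 36 DAP (20.3% and 15.9%).

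From 33 to 36 DAP, the main ACC oxidase moved in opposite directions in *Cmnor* and in *CmNOR/Cmnor*. ACC oxidase MELO3C014437.2 rose 5.40 ± 0.97-fold in *Cmnor* (log2 fold change 2.43, limma adjusted p = 6.1e-09) and fell 2.22 ± 0.13-fold in *CmNOR/Cmnor* (-1.15, 0.00065), while in WT it was 1.62 ± 0.19-fold lower at 36 DAP and did not reach the fold threshold (-0.70, 0.042). ACC synthase MELO3C021182.2 fell 39.4 ± 5.5-fold in *CmNOR/Cmnor* (log2 fold change -5.21, limma adjusted p = 2.5e-13) and 4.57 ± 1.5-fold in WT (-2.16, 3.1e-06). In *Cmnor* it averaged 1.62 ± 0.153 FPKM at 36 DAP against 0.374 ± 0.103 FPKM at 33 DAP, under the fold threshold on the log2(FPKM + 1) scale (0.93, 0.013). With a pseudocount of 0.1 this difference was 1.88 and passed (limma adjusted p = 3.3e-05). The CMA101-like MELO3C010779.2 fell in *CmNOR/Cmnor* (-3.32) and in WT (-1.31), and MELO3C016340.2 rose in *Cmnor* (1.18, limma adjusted p = 7.4e-05). MELO3C026792.2 rose in *CmNOR/Cmnor* (1.76) and in WT (1.09, or 0.99 under upper-quartile scaling). In the other genotypes MELO3C016340.2, close to 0 at 36 DAP, had log2 fold changes of -0.89 in *CmNOR/Cmnor* and -0.91 in WT, under the fold threshold. With a pseudocount of 0.1 these were -3.17 and -3.09 and passed (limma adjusted p of 2.9e-08 and 7.6e-08), and in WT the change also passed without WT replicate 2 at 33 DAP (-1.03). In all, 2 of the 10 genes were called in *Cmnor* (9.73% of all genes), 4 in *CmNOR/Cmnor* (5.63%) and 3 in WT (3.84%).

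From 36 to 39 DAP few of the genes were called. In *Cmnor*, MELO3C004619.2 rose (log2 fold change 1.01, limma adjusted p = 2.8e-09) and MELO3C026792.2 fell (-1.24, 5.3e-09), 2 of the 10 beside 7.64% of all genes. MELO3C004619.2 is among the 10 only through its *Cmnor* libraries, so its call here rests on values used in the choice of genes. Neither *CmNOR/Cmnor* nor WT had a called gene, beside 2.5% and 4.13% of all genes, although 3 in *CmNOR/Cmnor* and 4 in WT passed the limma adjusted p alone, and 3 and 5 had an unadjusted p under 0.05. For MELO3C014437.2 in *Cmnor* the log2 fold change was -0.97 (limma adjusted p = 0.0025). It passed the fold threshold without *Cmnor* replicate 2 at 39 DAP (-1.32), without replicate 3 at 39 DAP (-1.01) and without replicate 1 at 36 DAP (-1.05). The call of MELO3C004619.2 was lost without *Cmnor* replicate 2 at 36 DAP (0.975), replicate 1 at 39 DAP (0.995) or replicate 3 at 39 DAP (0.95), and under median scaling (0.973) and upper-quartile scaling (0.99). In WT, MELO3C019735.2 had a log2 fold change of -0.96 that passed without WT replicate 2 at 36 DAP (-1.02), without WT replicate 3 at 39 DAP (-1.004) and under median scaling (-1.08).

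Storage was followed by lower levels of the main ACC oxidase in *Cmnor* and by higher levels in *CmNOR/Cmnor*. Stored *Cmnor* flesh lost transcripts of MELO3C014437.2, 8.93 ± 4.0-fold lower than at 36 DAP (log2 fold change -3.23, limma adjusted p = 1.7e-11), and of MELO3C016340.2, 11 ± 2.8-fold lower (-2.79, 3.0e-11). Stored *CmNOR/Cmnor* flesh gained transcripts of MELO3C014437.2, 2.52 ± 0.11-fold (1.33, 8.7e-05), and of MELO3C021182.2, 4.16 ± 1.2-fold (1.95, 5.9e-06). In WT the same genes had log2 fold changes of 0.54 and -0.20 and did not pass (limma adjusted p of 0.094 and 0.75). ACC oxidase MELO3C019735.2 fell in both genotypes with a functional allele, 5.22 ± 0.99-fold in *CmNOR/Cmnor* (-2.37, 7.6e-12) and 4.93 ± 1.3-fold in WT (-2.32, 1.5e-11), and in *Cmnor* its log2 fold change was 0.06 (limma adjusted p = 0.85). The counts were 2 of 10 genes in *Cmnor* (12.1% of all genes), 3 in *CmNOR/Cmnor* (7.9%) and 1 in WT (8.29%). By adjusted p alone, 36 against 33 DAP gave 6 in *Cmnor*, 8 in *CmNOR/Cmnor* and 6 in WT (43.3%, 29.9% and 23.8% of all genes), 39 against 36 DAP gave 4, 3 and 4 (39.9%, 20.5% and 30.5%), and storage against 36 DAP gave 6, 5 and 4 (47.1%, 35.7% and 38.3%).

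**Figure D4:**
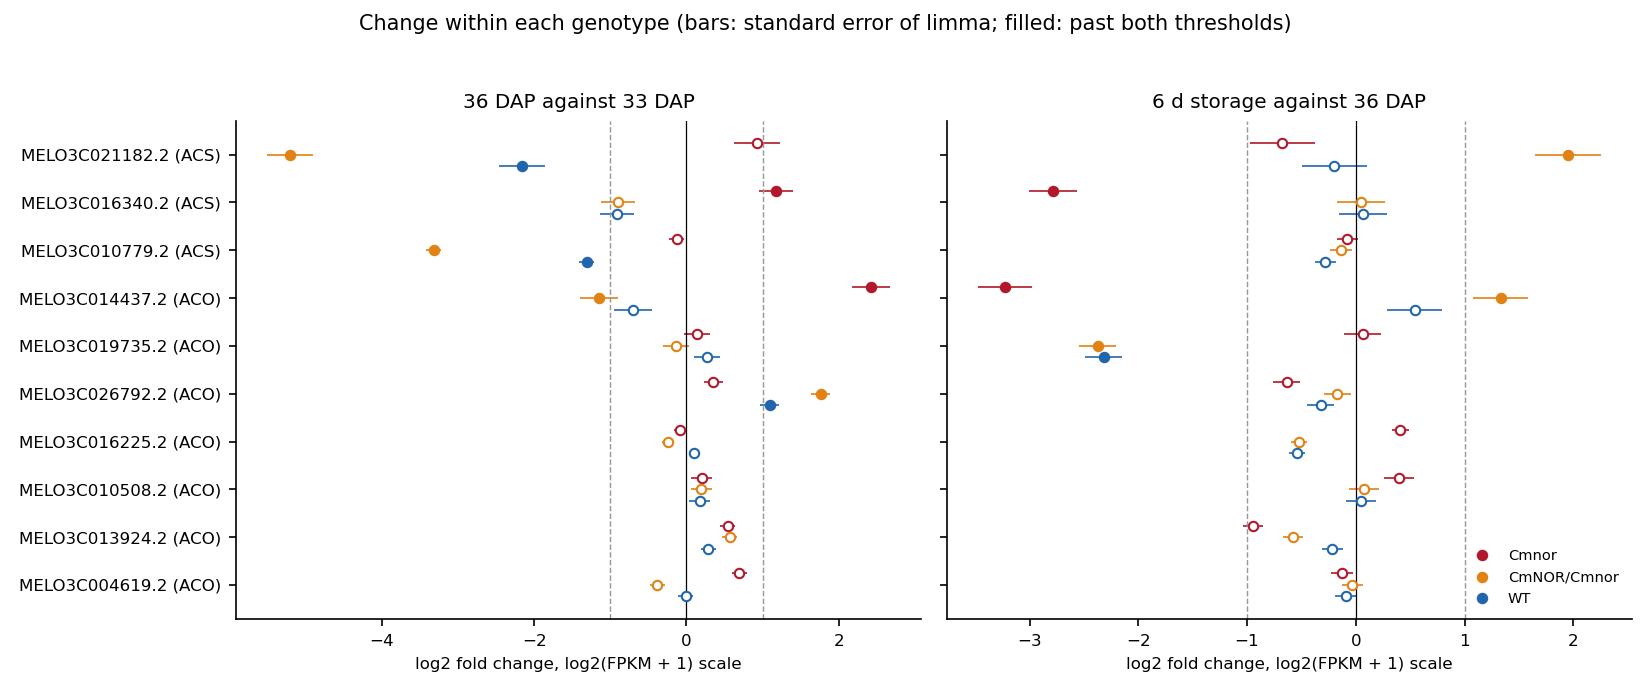
log2 fold change of each of the 10 genes between stages on the log2(FPKM + 1) scale, for 36 against 33 DAP and for 6 d of storage against 36 DAP, with *Cmnor* in red, *CmNOR/Cmnor* in orange, WT in blue and bars for the standard error of limma. Filled markers passed both thresholds; after storage MELO3C014437.2 lies at -3.23 in *Cmnor*, 1.33 in *CmNOR/Cmnor* and 0.54 in WT.

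These differences between genotypes in their response to storage were tested directly. The storage response of *Cmnor* minus that of WT was -3.77 (SE 0.35) for MELO3C014437.2, -2.85 (SE 0.31) for MELO3C016340.2 and 2.38 (SE 0.24) for MELO3C019735.2 on the log2 scale, with limma adjusted p of 1.2e-09, 2.1e-08 and 4.8e-09. That made 3 of the 10 genes called, beside 18.1% of all genes, and 5 passed the adjusted p alone, beside 45.9%. The storage response of *CmNOR/Cmnor* minus that of WT was called for 1 of the 10, beside 1.63% of all genes: MELO3C021182.2, at 2.15 (SE 0.43, limma adjusted p = 0.0018). With only the libraries compared in the fit its adjusted p was 0.081, and the 3 stored WT libraries of this gene ranged from 33.8 to 153 FPKM. Between 33 and 39 DAP, the difference from WT changed in 6 of the 10 genes in *Cmnor*, beside 15.9% of all genes, and in 2 of the 10 in *CmNOR/Cmnor*, beside 5.03%. Among the 6 in *Cmnor* was MELO3C004619.2, kept only through its *Cmnor* libraries.

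The genes around ACC, among them those that make SAM, recycle its sulfur and remove cyanide, were called in both directions when taken as a whole list. In *Cmnor* against WT all falls were of SAM synthases, methionine synthases or an aminotransferase. The 6 genes that recycle the sulfur and the 1 that removes cyanide were not called lower there. Over all genes, only 6.37% to 8.65% were called lower at these stages. Of 17 genes of a list drawn from the gene descriptions, 4 rose and 2 fell in *Cmnor* against WT at 33 DAP, 7 rose and 3 fell at 36 DAP, 5 rose and 3 fell at 39 DAP, and 6 rose and 2 fell after storage, beside 29.1%, 29.7%, 28.4% and 28.2% of all genes called in either direction. The median log2 fold change of the 17 was 0.34, 0.93, 0.52 and 0.64, beside the medians of 0.516, 0.485, 0.31 and 0.453 over the genes at 1 FPKM or more. Between *CmNOR/Cmnor* and WT limma called none at 33 and 36 DAP or after storage. At 39 DAP 2 rose, the SAM synthase MELO3C012911.2 (log2 fold change 1.18) and the methionine synthase MELO3C009782.2 (2.49). Of all genes, 2.86%, 2.28%, 3.41% and 1.36% were called at the 4 stages. By limma adjusted p alone, 8, 7 and 2 of the 17 passed at 33 and 36 DAP and after storage, beside 20.3%, 15.9% and 11% of all genes. An unadjusted p under 0.05 was found for 9, 10 and 4, and the share of all genes at that limit was not counted.

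Within families, separate genes moved in opposite directions in *Cmnor*. The most abundant SAM synthase, MELO3C023606.2, averaged 1736 ± 264 FPKM in *Cmnor* at 36 DAP and 505 ± 35.8 FPKM in WT (log2 fold change 1.77, limma adjusted p = 6.8e-11), and at 33 DAP its log2 fold change was -0.35 (0.051). SAM synthase MELO3C012911.2 rose at all 4 stages (4.02, 2.59, 3.73 and 4.29), and SAM synthase MELO3C024471.2 fell at all 4 (-2.57, -2.74, -1.66 and -1.37). The most abundant methionine synthase, MELO3C026604.2, fell at all 4 stages (-2.82, -2.72, -3.93 and -1.41), with 83.4 ± 5.33 FPKM in *Cmnor* at 36 DAP and 555 ± 30.8 FPKM in WT. Methionine synthase MELO3C009782.2 rose at all 4 (1.25, 2.34, 2.09 and 2.51).

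In the Yang cycle, which returns the sulfur of SAM to methionine, 6 genes were listed. In *Cmnor* against WT, 1, 3, 2 and 0 of them were called higher at the 4 stages, and 0 lower. Over all genes, 22.8%, 22.9%, 19.8% and 21.4% were called higher and 6.37%, 6.79%, 8.65% and 6.81% lower. The most abundant of the 6, the acireductone dioxygenase MELO3C006502.2, rose at 36 DAP alone (log2 fold change 1.19, limma adjusted p = 2.6e-06). Its WT libraries at that stage ranged from 75.8 to 186 FPKM. The ETO1-like MELO3C014329.2, named for a protein that marks ACC synthases for breakdown in *Arabidopsis*, rose after storage (1.07). The gene MELO3C001942.2, described as a bifunctional D-cysteine desulfhydrase and ACC deaminase, was not called against WT in *Cmnor* or *CmNOR/Cmnor* at any stage. It was higher in *Cmnor* than in *CmNOR/Cmnor* at 39 DAP (1.81) and after storage (1.31). Its log2 fold changes in *CmNOR/Cmnor* against WT were -0.53, -0.67, -0.94 and -0.92, all past the adjusted p and under the fold threshold. The aminotransferase MELO3C006840.2, described as ACS12, fell in *Cmnor* at 36 and 39 DAP (-1.10 and -1.17). The gene MELO3C021201.2 is described as a bifunctional enzyme, a cysteine synthase and a cyanoalanine synthase, the latter an activity that detoxifies cyanide such as that made by ACC oxidase. It rose in *Cmnor* at all 4 stages (2.92, 2.53, 3.63 and 1.91) and averaged 873 ± 107.9 FPKM in *Cmnor* at 39 DAP and 69.6 ± 7.0 FPKM in WT. This rise stood beside an ACC oxidase sum that was lower in *Cmnor*.

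The 7 genes described as ACC oxidase homologs, which the choice of genes left out, moved in both directions as well. In *Cmnor* against WT, 4 rose and 2 fell at 33 DAP, 3 rose and 2 fell at 36 DAP, 4 rose and 2 fell at 39 DAP and 3 rose and 2 fell after storage, beside the same 29.1%, 29.7%, 28.4% and 28.2% of all genes. The most abundant, MELO3C026436.2, fell at all 4 stages (-3.63, -2.71, -2.89 and -1.43), with 120 ± 7.80 FPKM in *Cmnor* at 33 DAP and 1495 ± 48.8 FPKM in WT. In *CmNOR/Cmnor* against WT its log2 fold changes were between -0.05 and 0.29 and none passed.

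**Figure D5:**
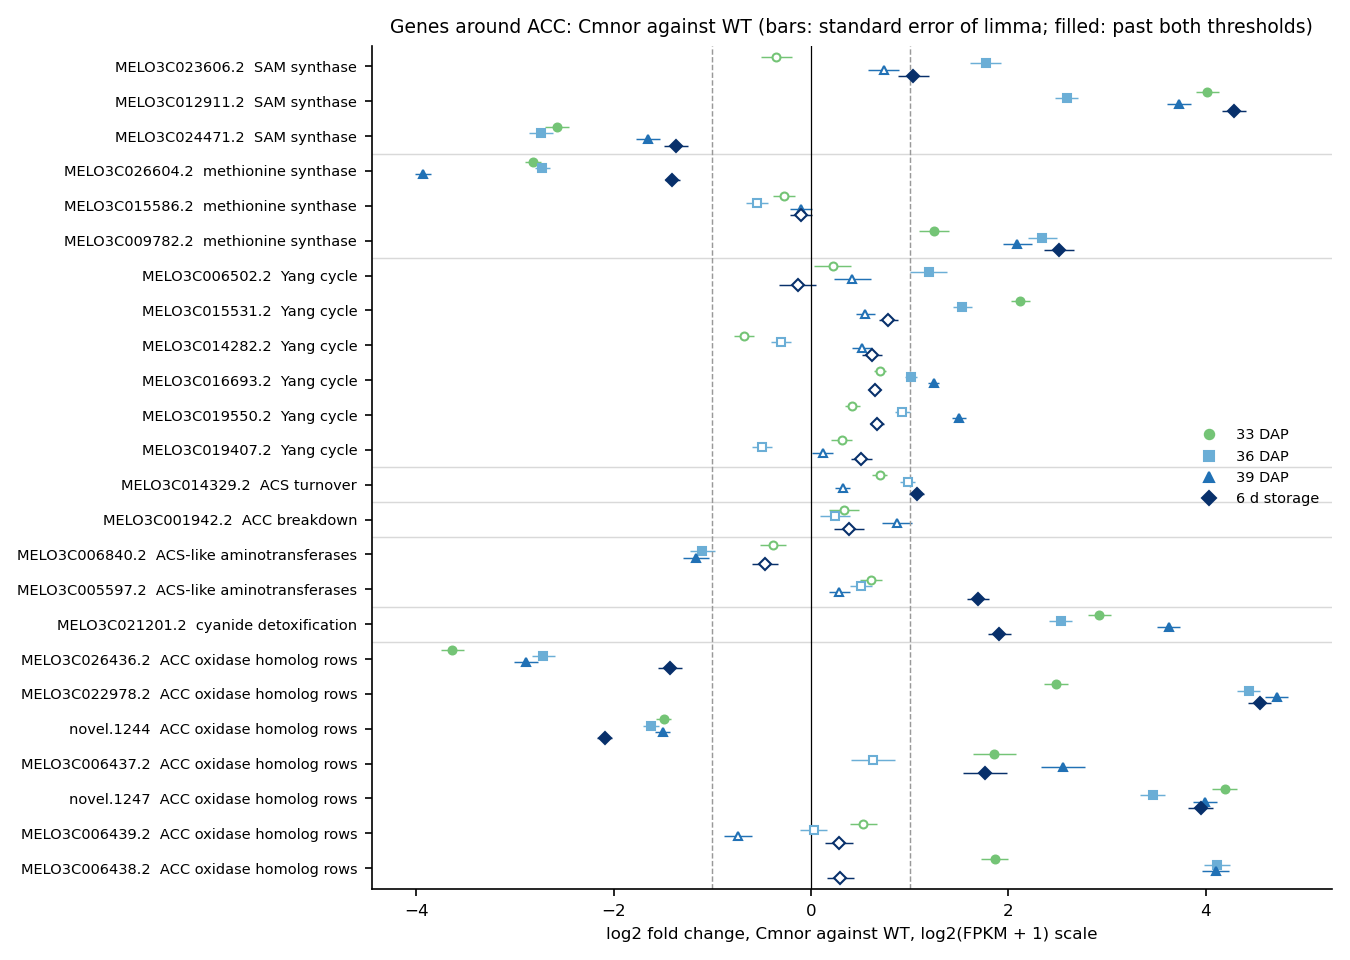
log2 fold change of *Cmnor* against WT on the log2(FPKM + 1) scale for the 17 genes around ACC and the 7 ACC oxidase homologs, with the 4 stages by colour and marker and bars for the standard error of limma. Filled markers passed both thresholds; SAM synthases stand on both sides of 0, and the cyanoalanine synthase MELO3C021201.2 lies between 1.91 and 3.63.

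For both main genes, the genes of most similar pattern were ranked by Pearson's correlation over the 12 group means of log2(FPKM + 1), among 11252 genes. Those nearest to MELO3C021182.2 were MELO3C034036.2 (r = 0.979) and MELO3C012368.2 (0.964), both described as DEMETER, a DNA demethylase in *Arabidopsis*, and MELO3C009461.2 (0.966), described as LITTLE ZIPPER 4. Those nearest to MELO3C014437.2 were MELO3C005582.2 (0.985), described as S-acyltransferase 14, MELO3C004559.2 (0.982), described as Mpv17, and MELO3C013366.2 (0.981), described as NUCLEAR FUSION DEFECTIVE 4-like. All these means come from the same 36 libraries, and the 4 *Cmnor* groups had the lowest means of all groups for these 6 genes. DEMETER MELO3C012368.2 averaged 6.45 to 11.5 FPKM in the *Cmnor* groups and 32.9 to 73.0 FPKM in the other groups.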

How the data were processed

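RNA-seq of flesh was analysed from 36 libraries in 12 groups of 3. Per the study's methods, the libraries were made with a TruSeq kit and Illumina reads were mapped by HISAT2, the reference being Melon (DHL92) v3.6.1. The submitters' processing notes also name TopHat2, StringTie and Cufflinks, without versions or roles. The authors deposited FPKM values, 1 per gene and library. Values of near-identical copies and overlapping genes are uncertain, since the counter, the use of strand and the handling of fragments with several matches were not given in the sources used here.

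Groups and replicate numbers came from the labels. The log2(FPKM + 1) values of 24901 genes were fitted with limma 3.58.1 (R 4.3.3), using a variance trend, 12 groups and no covariates, after 220 of 25121 genes with no signal in any library were left out. P-values were adjusted by Benjamini-Hochberg within each of 25 comparisons. Levels are means with the SD over 3 libraries, and folds are ratios of means with the SD from both. Sums and shares were made in Python 3.11.15 with pandas 2.3.3. Depth was estimated from the steps of low FPKM values. No pairing of libraries by replicate number was seen over all groups together.

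The rule for named genes took all 10 genes, the most abundant gene of each pathway list and the 3 genes nearest in pattern to the leading ACC synthase and ACC oxidase. The SAM synthases MELO3C012911.2 and MELO3C024471.2 and the methionine synthase MELO3C009782.2 were named after their values were seen. The genes, lists and comparisons were chosen with earlier results of these data known. Alternatives were 2 scalings, a pseudocount of 0.1, a filter of 1 FPKM in 3 libraries, a replicate block, the compared libraries alone, adjusted p alone and each library left out. A fit without replicate 2 of *Cmnor* and *CmNOR/Cmnor* at 33 DAP was added after seeing the data. All 10 genes passed the filter, MELO3C004619.2 through 8 *Cmnor* libraries alone and MELO3C016340.2 through its 12 *Cmnor* libraries, with 1 *CmNOR/Cmnor* and 1 WT library reaching 1 FPKM.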

Additional observations from a re-analysis of the deposited data

Results flagged for a closer look

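The values below are limma tests of whether a difference changed between stages or genotypes, on the log2(FPKM + 1) scale, and no explanation was tested. Between 33 and 39 DAP the difference of *Cmnor* from WT changed in 6 of the 10 genes, beside 15.9% of all genes. It moved upward for 3 of the 4 genes that were lower in *Cmnor* at 33 DAP: by 1.81 (SE 0.35, limma adjusted p = 0.00013) for ACC oxidase MELO3C014437.2, 1.74 (SE 0.43, 0.0014) for ACC synthase MELO3C021182.2 and 1.44 (SE 0.14, 3.6e-09) for ACC synthase MELO3C010779.2. The last was near 0 in every genotype at 39 DAP, where its log2 fold change in *Cmnor* against WT was 0.15. The means of MELO3C021182.2 at 33 and 39 DAP were 0.374 and 0.745 FPKM in *Cmnor*, and 368 and 136 FPKM in WT. The difference became more positive by 2.22 (SE 0.31, 1.6e-06) for ACC synthase MELO3C016340.2 and by 1.78 (SE 0.14, 8.8e-11) for ACC oxidase MELO3C004619.2, a gene that is among the 10 through its *Cmnor* libraries. For MELO3C026792.2 it changed by -2.32 (SE 0.18, 5.1e-11), toward lower levels in *Cmnor*.

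The difference of *CmNOR/Cmnor* from WT changed between the same stages in 2 of the 10 genes, beside 5.03% of all genes, by -2.90 (SE 0.43, limma adjusted p = 1.2e-05) for MELO3C021182.2 and by -1.68 (SE 0.14, 1.4e-09) for MELO3C010779.2. Both are ACC synthases that stood higher in *CmNOR/Cmnor* than in WT at 33 DAP, the first under the fold threshold.

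The storage response differed between *Cmnor* and WT by -3.77 (SE 0.35, limma adjusted p = 1.2e-09) for MELO3C014437.2, by -2.85 (SE 0.31, 2.1e-08) for MELO3C016340.2 and by 2.38 (SE 0.24, 4.8e-09) for MELO3C019735.2. Between *CmNOR/Cmnor* and WT it differed by 2.15 (SE 0.43, 0.0018) for MELO3C021182.2. Over the alternatives run, this last value lay between 1.64 and 2.71 with adjusted p of 2.6e-06 to 0.081.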

How the results depend on the processing

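No value turned its direction under any alternative once past the thresholds. Of 250 values of a gene in a comparison, the filter and the replicate block changed no call, upper-quartile scaling lost 6, median scaling lost 9 and added 2, a pseudocount of 0.1 lost 1 and added 20, and the compared libraries alone lost 1. Of 1740 values with 1 library left out, 5 lost and 13 gained a call. Without replicate 2 of *Cmnor* and *CmNOR/Cmnor* at 33 DAP none of 70 changed. Over all groups together, no pairing by replicate number was seen: deviations of same-numbered libraries had a median correlation of 0.00185 over 198 pairs, against 0.00542 over 396 other pairs. Correlations over 0.1 were found in 22.2% and 22.5% of these pairs, and the highest were 0.717 and 0.601. Pairing between single groups was not tested. With the replicate block 5, 5, 5 and 7 genes were called between *Cmnor* and WT, as without it.

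The counts in this paragraph are a selection, and smaller changes of a count are left out. Shares of all genes for adjusted p alone are given above, and those under the other alternatives were not counted. By adjusted p alone, *Cmnor* against WT gave 8, 8 and 8 at 33, 36 and 39 DAP, and *CmNOR/Cmnor* against WT gave 4 at 33 DAP, 3 at 36 DAP and 2 after storage. Between stages it gave 6, 4 and 6 in *Cmnor*, 8, 3 and 5 in *CmNOR/Cmnor* and 6, 4 and 4 in WT for 36 against 33 DAP, 39 against 36 DAP and storage against 36 DAP, and 5 for the storage response of *Cmnor* minus WT. Median scaling gave 4 after storage for *Cmnor* against WT and against *CmNOR/Cmnor*, and 1 for 39 against 36 DAP in *Cmnor* and in WT. Upper-quartile scaling gave 1 for 39 against 36 DAP in *Cmnor*. Between *Cmnor* and WT it also lost the calls of MELO3C004619.2 at 36 DAP and after storage. It lost those of MELO3C010508.2 in stored *Cmnor* against both other genotypes, and that of MELO3C026792.2 for 36 against 33 DAP in WT. A pseudocount of 0.1 gave 4 for 36 against 33 DAP and 4 for storage in *Cmnor*, 1 for 39 against 36 DAP and 2 for storage in WT, and 1 for the change of the *CmNOR/Cmnor* difference between 33 and 39 DAP. With the compared libraries alone the storage response of *CmNOR/Cmnor* minus WT gave 0. With 1 library left out, 39 against 36 DAP gave 1 to 3 in *Cmnor* and 0 to 1 in WT, *CmNOR/Cmnor* against WT gave 2 to 3 at 33 DAP, *Cmnor* gave 6 to 7 against WT and 6 to 8 against *CmNOR/Cmnor* after storage, and the causes were not tested. Values far under 1 FPKM rest on few fragments, and the 1 FPKM added before the log shrinks differences at such levels. Small differences there could be missed, and the part of depth in this was not tested.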
